A study of Mus musculus with 6 samples.

Results

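The Sprr and Lce genes are 2 families of small structural proteins of the epidermal surface, and they lie together on mouse chromosome 3. Members were all gene models on chromosome 3 whose name begins with Sprr or Lce, which gave 35 of the 23726 models counted. The Sprr family had 17 of them (2 Sprr1, 13 Sprr2, Sprr3 and Sprr4), and the Lce family had 18 (13 Lce1, 4 Lce3 and Lce6a). In mm9 coordinates the Sprr models ran from 92019758 to 92304415 and the Lce models from 92424008 to 92822982. The rule uses names and position only, though the families were picked with earlier results of these data known.

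When keratinocytes reach the surface of the skin they replace their membrane with the cornified envelope, a sheath of proteins that transglutaminases crosslink. Loricrin is its main component in epidermis. Sprr proteins (small proline-rich proteins) bridge other envelope proteins and are known to be induced by injury and inflammation, and Lce proteins (late cornified envelope proteins) are added late. Lce1 genes are known from normal epidermis, whereas Lce3 genes are known for induction when the skin barrier is damaged. Sprr3 is best known from the internal stratified epithelia of the mouth and oesophagus.

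RNA was sequenced from 6 mouse libraries of a DMBA/TPA skin carcinogenesis model, in which a mutagen (DMBA) is followed by a phorbol ester (TPA) painted on the skin. The biopsies were 1 of healthy total skin, 2 of distinct DMBA/TPA papillomas (benign outgrowths) and 1 of a DMBA/TPA tumour. The cultured samples mSCC-20 and mSCC-38 were skin cells isolated from DMBA/TPA tumour tissue. The submitters call the first non tumorigenic and the second highly tumorigenic. The labels leave out strain, genotype, age, treatment times, the number of mice and whether both cultures came from 1 tumour. Only papilloma has more than 1 library, so p-values rest on the spread between those 2 lesions and on an estimate shared over all genes. Both lesions may come from 1 mouse, and values of the other groups carry no replicate error.

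Total counts ran from 25140489 (papilloma 1) to 42992597 (tumour), and 3 counts, the most that a count of 0 allows, were 0.0604 to 0.141 CPM. CPM are counts scaled to a fixed library total and, here, by TMM factors. The RNA integrity number was lowest in skin (7.5) and between 8.2 and 9.6 in the other libraries. In biopsies, fewer cells of a type cannot be told apart from less RNA per cell. Of the 35 models, 31 passed the filter on low counts and were tested. The other 4 were duplicate models of Sprr2a1 and Sprr2a2 with at most 1 count in any library. In a transcript annotation of another build, 96.8% of the 35-base windows of Sprr2a1 and 97.5% of those of Sprr2a2 recurred in another Sprr or Lce transcript, so these counts say nothing of the expression of those genes.

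Start regions are shown first because the families differ in them. A window from 250 bases before to 50 bases after the annotated start (RefSeq, GRCm38.p6, 300 bases) was found for 28 of the 35 models. The AP-1 letters TGANTCA, searched on both strands, occurred in 9 of 11 Sprr windows and in 0 of 17 Lce windows, against 7.81% of all 32851 windows. AP-1 is the Fos and Jun dimer that phorbol esters such as TPA are known to activate. All 7 Sprr2 windows held the match, between 182 and 198 bases before the start, and both Sprr1 windows held it, at 111 and 116 bases. The windows of Sprr3 and Sprr4 did not hold these letters. For Sprr4 the sequence from the annotated start on begins with ATG, and its gene model is a single block of 230 bases. Its transcript may thus start further upstream, and the absence of letters from its window says little. Below are the match nearest to the start in capitals and 20 bases on each side, read on the gene's strand.
Sprr2d: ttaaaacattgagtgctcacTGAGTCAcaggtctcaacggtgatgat
Sprr2i: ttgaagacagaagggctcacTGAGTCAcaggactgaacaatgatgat
Sprr2f: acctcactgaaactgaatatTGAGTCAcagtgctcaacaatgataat
Sprr2h: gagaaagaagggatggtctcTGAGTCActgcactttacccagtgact
Sprr2k: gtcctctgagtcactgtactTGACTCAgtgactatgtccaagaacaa
Sprr1a: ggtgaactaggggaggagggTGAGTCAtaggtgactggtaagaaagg
Sprr1b: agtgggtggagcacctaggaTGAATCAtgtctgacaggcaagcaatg
In GRCm38.p6 these lie at chr3:92338927-92338973 for Sprr2d, chr3:92407778-92407824 for Sprr2i, chr3:92364970-92365016 for Sprr2f, chr3:92385467-92385513 for Sprr2h and chr3:92432380-92432426 for Sprr2k, all on the plus strand. Sprr1a (chr3:92485971-92486017) and Sprr1b (chr3:92438864-92438910) are on the minus strand. Sprr2k and Sprr1a held a further match, 196 and 146 bases before the start. A match is a run of letters and not a measured binding site. Many Sprr2 windows resemble each other in sequence, as do many Lce1 windows, so counts of windows here and below are not counts of independent sites.

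The last 50 bases before the start differed between subgroups too. The letters TATAAA, searched on the gene's own strand, stood there in 10 of 11 Sprr windows (all but Sprr4) and in 2 of 17 Lce windows (Lce1d and Lce1m), against 2.63% of all windows. The limit on the annotated start of Sprr4 holds here too. Once the letters had been seen, the looser NATAAA was searched as well. It stood there in 11 of 12 Lce1 and 4 of 4 Lce3 windows, against 6.49% of all windows. Of the Lce1 windows 8 had AATAAA (1.87% of all windows), and of the Lce3 windows 3 had GATAAA (0.916% of all windows). The NATAAA match nearest to the start is in capitals in these windows, chosen to show each subgroup.
Sprr2d: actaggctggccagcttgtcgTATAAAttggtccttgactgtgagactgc
Sprr1a: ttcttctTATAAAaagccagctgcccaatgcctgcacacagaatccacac
Sprr3: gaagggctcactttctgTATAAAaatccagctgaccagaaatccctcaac
Sprr4: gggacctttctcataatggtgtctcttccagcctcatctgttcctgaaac
Lce1m: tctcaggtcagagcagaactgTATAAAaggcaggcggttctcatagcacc
Lce1g: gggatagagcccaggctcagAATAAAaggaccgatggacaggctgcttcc
Lce1a1: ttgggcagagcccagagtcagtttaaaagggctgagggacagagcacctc
Lce3f: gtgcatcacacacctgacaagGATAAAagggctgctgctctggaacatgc
Their positions are chr3:92339090-92339139 (Sprr2d, plus strand), chr3:92485882-92485931 (Sprr1a, minus), chr3:92458721-92458770 (Sprr3, minus) and chr3:92500494-92500543 (Sprr4, minus). Those of the Lce genes are chr3:93019062-93019111 (Lce1m, minus), chr3:92752339-92752388 (Lce1g, minus), chr3:92648308-92648357 (Lce1a1, minus) and chr3:92992167-92992216 (Lce3f, plus). Sprr4 and Lce1a1 have no capitals because neither window held NATAAA. The other letters searched on both strands did not mark out the families: CACCC stood in 12 of 28 windows (57.5% of all), GGAA in 28 of 28 (96% of all), TGACNNNGC in 5 of 28 (12.4% of all) and TGACGTCA in 0 of 28 (1.79% of all). TGACNNNGC can overlap an AP-1 match.

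Both families were at their highest in papilloma, and they parted in the tumour. The summed Sprr level was 1111 CPM in skin, reached 22148 CPM in papilloma 1 and 14153 CPM in papilloma 2, and was 6258 CPM in the tumour. The summed Lce level was 984 CPM in skin, 5748 and 3624 CPM in the papillomas, and 161 CPM in the tumour. Sprr thus stood above its skin level in the tumour, and Lce below it. In the cultures the sums were 471 CPM (mSCC-20) and 24.1 CPM (mSCC-38) for Sprr, and 4.52 and 3.73 CPM for Lce. Of the scaled counts of both families, Sprr made up 53% in skin, 79.4% and 79.6% in the papillomas and 97.5% in the tumour. Of the 31 tested members 25 were highest in papilloma 1, 4 in papilloma 2 (Sprr2b, Sprr2e, Lce6a and Lce1a1) and 2 in skin (Sprr4 and Lce1m). The map of levels by library shows this as a bright papilloma block that stays bright in the tumour for most Sprr genes. How many of all genes were highest in papilloma 1 was not counted.

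**Figure D1:**
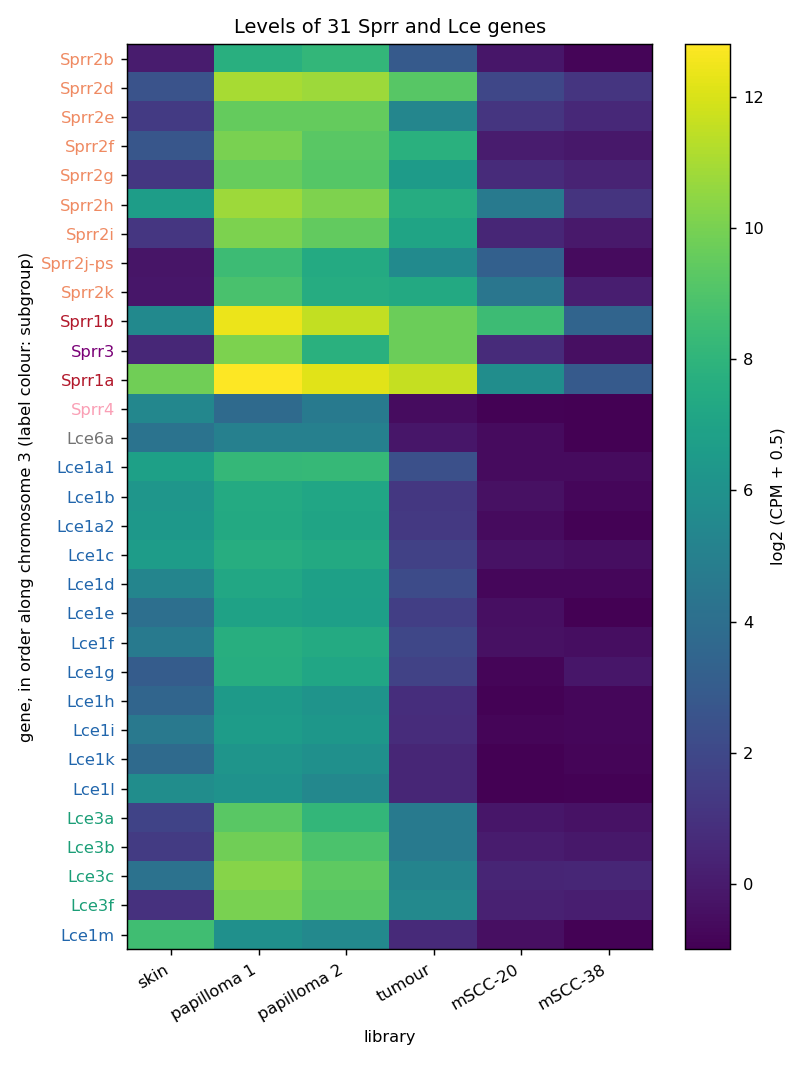
Levels of the 31 tested members as log2 (CPM + 0.5), with genes in chromosome order from top to bottom and the 6 libraries from left to right. Most members are brightest in papilloma 1, and Lce1m and Sprr4 are brightest in skin.

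Papilloma was compared with skin to see how the benign lesion differs from healthy tissue. Of the 31 tested members 28 rose and 1 fell at an edgeR adjusted p under 0.05, where 12.0% of all 16353 genes tested rose and 14.1% fell. The median log2 fold change was 3.82 over the members and -0.06 over all genes. Of the Sprr genes 12 of 13 rose, with a median of 8.52, and of the Lce genes 16 of 18 rose and 1 fell, with a median of 2.15. Both papillomas lay above skin for 28 members and below it for 2 (Sprr4 and Lce1m), and on either side of it for Lce1l. The share of all genes with both papillomas on the same side of skin was not counted, so this only describes the members.

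Sprr1a and Sprr1b, injury-induced envelope precursors, had the highest levels per length of all members in the papillomas. Sprr1a (mm9 chr3:92287877-92289803, minus strand) was at 901 CPM in skin, at 7190 and 4737 CPM in the papillomas and at 3084 CPM in the tumour. Its papilloma level was well over skin in both libraries, a rise of 2.73 ± 0.47 on the log2 scale (SE, edgeR adjusted p = 0.021). Sprr1b (chr3:92240732-92242701, minus) was at 46 CPM in skin, at 5355 and 2962 CPM in the papillomas and at 826 CPM in the tumour. It started from a much lower skin level and rose by 6.50 ± 0.64 (SE, edgeR adjusted p = 0.00805). Per kilobase of gene model, Sprr1a had 1144 CPM in skin where Sprr1b had 56.3 CPM, while their papilloma means were 7568 and 5084 CPM per kilobase.

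The Sprr2 genes, the largest Sprr subgroup, all rose: 9 of 9 tested, by log2 fold changes of 3.82 to 9.63 with a median of 8.55. Sprr2d (chr3:92143063-92144795, plus), the highest of them per length in papilloma, was at 5.32 CPM in skin, at 2036 and 1757 CPM in the papillomas and at 605 CPM in the tumour. Its rise of 8.48 ± 0.43 had an edgeR adjusted p of 0.00383. Sprr2i (chr3:92211914-92213193) went from 1.81 CPM to 1093 and 715 CPM, and was at 133 CPM in the tumour. Sprr2f (chr3:92169110-92170364) went from 6.06 CPM to 1058 and 625 CPM, and was at 219 CPM in the tumour. All 3 were low in skin and high in both papillomas. Sprr2h (chr3:92189608-92191241) stood apart in skin, at 102 CPM, and reached 1756 and 1127 CPM in the papillomas and 185 CPM in the tumour. Its rise, 3.82 ± 0.43 (SE, edgeR adjusted p = 0.00988), was the smallest of the subgroup. Per kilobase, the highest Sprr2 gene in skin (Sprr2h) was 255-fold above the lowest (Sprr2j-ps), and in the papilloma mean the highest was 7.84-fold above the lowest. Depth limits the low end of this range in skin, where Sprr2j-ps, chosen after its values were seen, had 18 counts.

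Sprr3 (chr3:92260425-92262642, minus) was at 0.967 CPM in skin, 1107 CPM in papilloma 1, 218 CPM in papilloma 2 and 847 CPM in the tumour. Its log2 fold change of 9.42 ± 1.50 (edgeR adjusted p = 0.018) had the widest error of all members. The log2 ratio of CPM with 0.5 added to each side was 8.82 over the papilloma mean, 7.22 from papilloma 2 alone and 9.56 from papilloma 1 alone. Sprr4 (chr3:92304186-92304415, minus) was the only Sprr gene with both papillomas below skin, with 41.7 CPM in skin against 13.2 and 25.3 CPM. That difference, -1.11 ± 0.39, did not pass the test (edgeR adjusted p = 0.0935).

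All 4 Lce3 genes rose, by log2 fold changes of 5.75 to 9.14 with a median of 7.80. Lce3f (chr3:92796149-92797348, plus) was at 1.45 CPM in skin, at 1046 and 587 CPM in the papillomas and at 44.9 CPM in the tumour, and rose by 9.14 ± 0.64 (SE, edgeR adjusted p = 0.00538). Lce3c (chr3:92748409-92749652, plus) was at 17.8 CPM in skin, at 1257 and 657 CPM in the papillomas and at 37.6 CPM in the tumour. It was the most abundant Lce3 gene in skin and rose least, by 5.75 ± 0.59 (SE, edgeR adjusted p = 0.00845). Lce3b (chr3:92736902-92738018) went from 2.18 CPM to 907 and 479 CPM, and was at 24.8 CPM in the tumour. Lce3a (chr3:92729210-92730152) went from 2.88 CPM to 617 and 283 CPM, and was at 24 CPM in the tumour. In every Lce3 gene papilloma 1 stood above papilloma 2, and both stood above skin and tumour. The summed Lce3 level rose from 24.3 CPM in skin to a papilloma mean of 2917 ± 1287 CPM (SD, n = 2), a ratio of 120. From 22.3% (Lce3b) to 49.4% (Lce3f) of the transcript windows of these genes recurred in another Sprr or Lce transcript. Lce3c shared 39.2% of its windows with Lce3f. The transcript closest to Lce3a and Lce3f was Lce3e, which is not analysed here. Reads may thus have been split between such genes, which limits the ranking of single Lce3 genes here and below.

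The Lce1 genes rose far less: 11 of 13 rose and 1 fell, with a median of 1.80. Lce1g (chr3:92554074-92556260, minus) rose most, from 7.63 CPM in skin to 197 and 143 CPM, by 4.48 ± 0.31 on the log2 scale (SE, edgeR adjusted p = 0.00538). Lce1f (chr3:92522619-92524272, minus) had 24 CPM in skin, against 203 and 176 CPM in the papillomas. Lce1a1 (chr3:92450455-92452229, minus) had 117 CPM in skin against 295 and 299 CPM in the papillomas, a rise of 1.35 ± 0.20 (SE, edgeR adjusted p = 0.0159). The papilloma levels of these 3 genes thus lay closer together than their skin levels. Lce1m (chr3:92821730-92822982, minus) went the other way, from 382 CPM in skin to 60.8 and 44.1 CPM in the papillomas. It was the only member that fell, with a change of -2.86 ± 0.24 (SE, edgeR adjusted p = 0.00658). With it left out, the other 12 Lce1 genes summed to 560 CPM in skin and to 1828 and 1541 CPM in the papillomas. Lce1l and Lce6a are named after their values were seen: Lce1l had 53.8 CPM in skin against 64.8 and 43.3 CPM in the papillomas (0.01 ± 0.27, edgeR adjusted p = 0.982), and Lce6a at 18.4, 31.4 and 32.1 CPM (0.79 ± 0.17, edgeR adjusted p = 0.0344). The 4 smallest rises, those of Lce6a, Lce1c, Lce1a2 and Lce1b, were lost when total counts replaced TMM (edgeR adjusted p = 0.245, 0.136, 0.123 and 0.0622).

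The Lce1 changes varied along the chromosome. From Lce1a1 the log2 fold changes ran 1.35, 1.07 (Lce1b), 0.89 (Lce1a2), 0.85 (Lce1c), 1.80 (Lce1d), 2.87 (Lce1e), 2.98 (Lce1f) and 4.48 (Lce1g). Beyond Lce1g they ran 2.93 (Lce1h), 1.93 (Lce1i), 2.36 (Lce1k) and 0.01 (Lce1l), and Lce1m, which lies past the Lce3 genes, was at -2.86. The highest values thus stood in the middle of the cluster and the lowest at its far end, a description with no test. Per kilobase, skin made most of this pattern: there the highest Lce1 gene (Lce1m, 436 CPM per kilobase) was 52.6-fold above the lowest (Lce1g, 8.3 CPM per kilobase). In the papilloma mean the highest Lce1 gene was 7.01-fold above the lowest, and in the tumour 5.45-fold. Lce1 genes share sequence with other members: from 0.455% (Lce1m) to 44.8% (Lce1i) of their 35-base windows recurred in another Sprr or Lce transcript, so reads may have been split between them. How such reads were treated is not given in the sources available for this work.

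**Figure D2:**
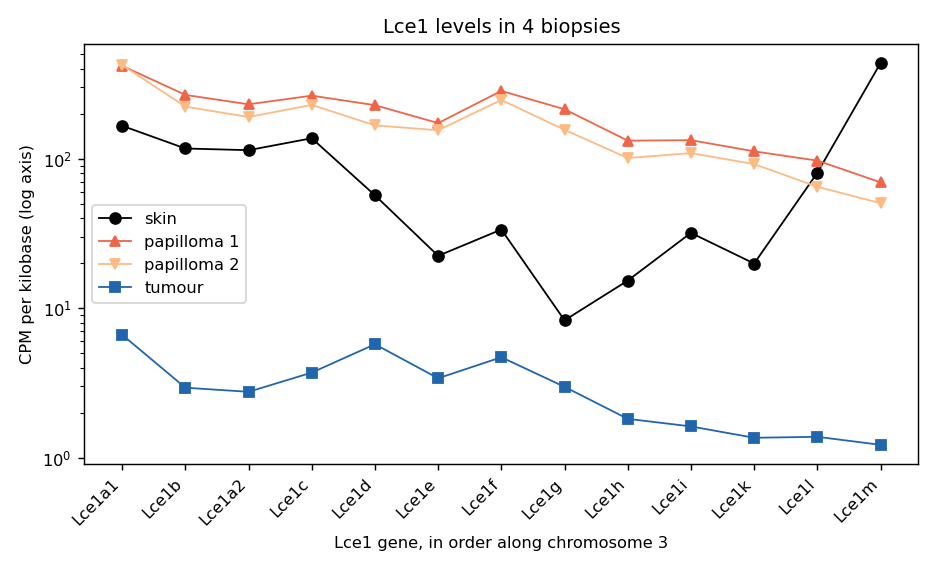
CPM per kilobase of gene model (log axis) of the 13 Lce1 genes, in chromosome order, in the 4 biopsies, 1 point per library and gene. The papilloma and tumour lines are flatter than the skin line, which dips to 8.3 at Lce1g and peaks at 436 at Lce1m.

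Very low levels in skin need a floor. Among 7 hair genes of a fixed marker list with at least 500 CPM in skin, the median level left in papilloma 1, the tumour and both cultures was 0.0446% to 0.0721% of the skin level. Papilloma 2 was not used for a floor, because its median was 26% (19.6% to 34.4%). Whether the residue in the other libraries is RNA of hair cells or background was not tested. The skin levels of Sprr3 and Sprr2k were 0.0873% and 0.0891% of their highest library, and those of the other tested members were 0.102% or more. In these libraries the hair gene left highest was Tchh, at 0.329% in papilloma 1 (21.2 CPM, against 6432 CPM in skin), where the median was 0.0615%. Only a range drawn up to this 1 gene also takes in the skin levels of Lce3b, Lce3f and most Sprr2 genes. Fold changes from such low skin levels are not exact, and a larger rise could read the same.

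Tumour was compared with papilloma in the same fit, and both comparisons use the same papilloma libraries, so a member high in papilloma tends to show a rise in the first and a fall in the second. Of the 31 tested members 0 rose and 28 fell, where 11.9% of all genes tested rose and 10.6% fell. The count of members that rose was 0 also at an unadjusted p under 0.05, by edgeR and by DESeq2. The median log2 fold change was -5.10 over the members and -0.02 over all genes. All 18 Lce genes fell, with a median of -5.91, and 10 of 13 Sprr genes fell, with a median of -2.42. The 3 that did not pass the test were Sprr1a, Sprr2k and Sprr3.

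The falls of the Lce1 genes lay close together, with log2 fold changes between -6.38 (Lce1b) and -5.10 (Lce1d). Lce1a1 fell by 5.98 ± 0.26 (SE, edgeR adjusted p = 0.00205), to 4.69 CPM in the tumour. Lce1f was at 3.36 CPM and Lce1g at 2.75 CPM in the tumour. Lce1m, already lower in papilloma, changed by a further -5.62 ± 0.35 (SE, edgeR adjusted p = 0.00258), to 1.07 CPM. Lce1 genes that had risen, fallen or not passed the test in papilloma were thus all much lower in the tumour. The Lce3 genes fell somewhat less, with log2 fold changes of -4.80 to -4.18, and Lce6a fell by 6.29. Summed over Lce1, papilloma was at 1737 ± 215 CPM (SD, n = 2) and the tumour at 29 CPM, a ratio of 59.9.

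The Sprr genes were split in this comparison. Sprr4 fell by 6.64 ± 0.64 on the log2 scale (SE, edgeR adjusted p = 0.0055), to 0.189 CPM or 8 counts, an estimate beyond that of any Lce gene. Sprr2b and Sprr2e, named after their values were seen, changed by -5.12 ± 0.32 and -4.23 ± 0.27, the largest falls of the Sprr2 genes (edgeR adjusted p = 0.00261 and 0.00267). Sprr2h, Sprr2i and Sprr2f, which also fell, changed by -2.96, -2.77 and -1.94. Sprr2d fell by 1.65 ± 0.29 (SE, edgeR adjusted p = 0.0222) and so kept 605 CPM. In this 1 tumour library the Sprr2 genes lay further apart than in the papillomas: per kilobase the highest (Sprr2d) was 86.9-fold above the lowest (Sprr2b).

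Sprr1b fell by 2.33 ± 0.51 (SE, edgeR adjusted p = 0.0352). Sprr1a, at 3084 CPM the most abundant member in the tumour, was below both papillomas, and its difference of -0.95 ± 0.43 did not pass edgeR's test (adjusted p = 0.177) but did pass DESeq2's (adjusted p = 0.0102). Sprr2k was at 452 and 189 CPM in the papillomas and 166 CPM in the tumour (-0.94 ± 0.55, edgeR adjusted p = 0.269). Sprr3, at 847 CPM, lay between papilloma 2 and papilloma 1 (0.35 ± 0.90, edgeR adjusted p = 0.798). Its log2 ratio turned to -0.39 without papilloma 2. The calls of Sprr1b, Sprr2f and Sprr2j-ps were lost under DESeq2 size factors, with edgeR adjusted p of 0.0565, 0.0549 and 0.0548.

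**Figure D3:**
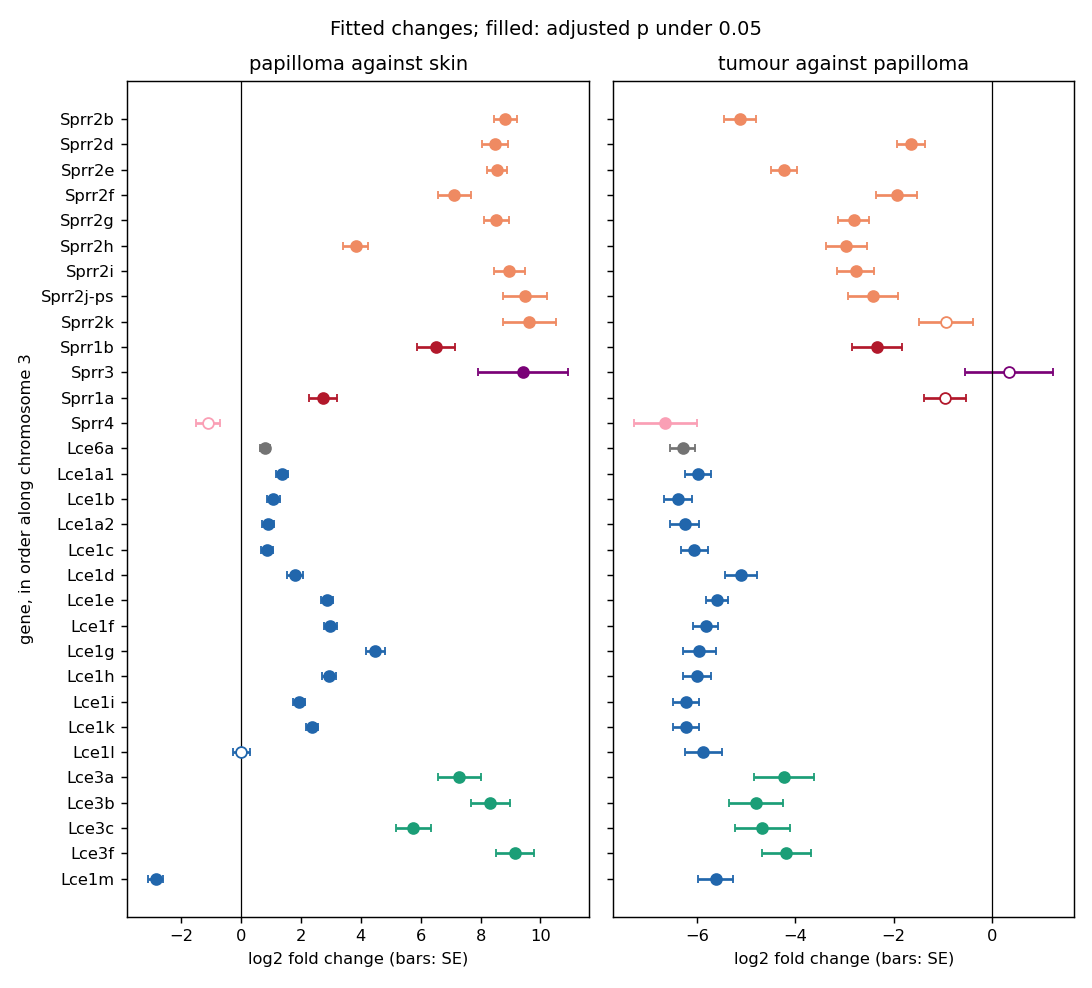
Fitted log2 fold changes of the 31 tested members (bars: SE) for papilloma against skin (left) and tumour against papilloma (right), filled where the edgeR adjusted p is under 0.05. On the left Lce3 and most Sprr2 genes lie far to the right of Lce1, and on the right every Lce gene lies at -4.18 or lower.

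Tumour and skin were set side by side by size alone, asking for 4-fold or more in either direction and 10 CPM or more in the library with the higher level, with 1 library each and no test run. Of the 29 members that reached 10 CPM, 12 were higher and 14 lower in the tumour, where 5.21% of 11114 genes were higher and 9.14% lower by the same rule. The members went both ways by subgroup. Of the Sprr genes 9 were higher and 1 lower, of the Lce3 genes 3 were higher, and of the Lce1 genes 12 were lower. Intervals are exact Clopper-Pearson 95% intervals of the ratio of counts and cover counting error only.

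Sprr3 had the largest ratio, 876-fold above skin (interval 661 to 1188), and Sprr2k was 413-fold above it (267 to 677). Sprr2d was 114-fold above skin (101 to 129) and Sprr1b 17.9-fold (17.2 to 18.7). Sprr1a was 3.42-fold above skin and Sprr2h 1.81-fold, the 2 Sprr genes most abundant in skin. Sprr4 alone of the Sprr genes was lower, 220-fold (111 to 510). Among the Lce3 genes, Lce3f was 31-fold above skin (24.5 to 39.7), Lce3b 11.4-fold and Lce3a 8.34-fold, while Lce3c was 2.12-fold above it. The Lce3 genes, though far below their papilloma level, thus stayed above skin. Lce1m was 358-fold below skin (268 to 492). Its tumour level, 0.279% of skin, lay within the residue of hair genes in the tumour only through Tchh (0.289%, with a median of 0.0721% over the hair genes). That ratio is thus not taken as exact. Lce1a1 was 25-fold below skin and Lce1g, the Lce1 gene lowest in skin, 2.78-fold below it. Summed, the tumour was 5.63-fold above skin for Sprr (5.58 to 5.69), 5.41-fold above it for Lce3 (5.08 to 5.76), and 32.5-fold below it for Lce1 (30.7 to 34.4).

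**Figure D4:**
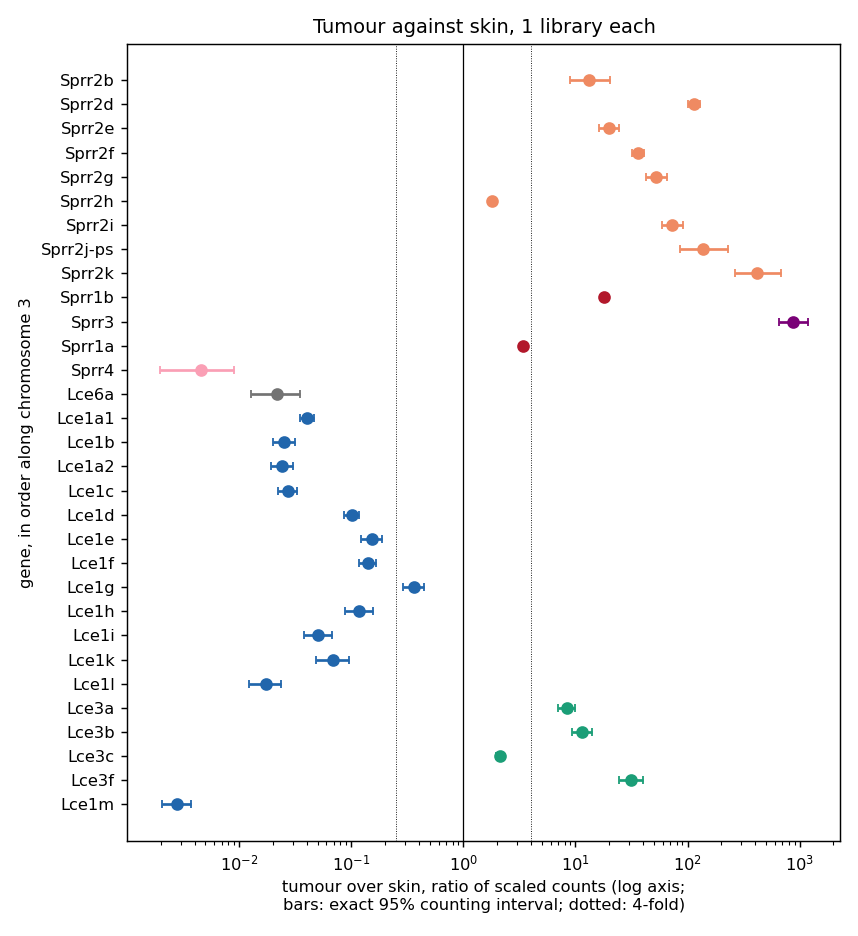
Ratio of scaled counts, tumour over skin (log axis), of the 31 tested members in chromosome order, with exact 95% counting intervals and dotted lines at 4-fold. Lce1 genes, Lce6a and Sprr4 lie left of 1, and the other Sprr genes and all Lce3 genes lie right of it.

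In the cultures, what remained of the families was Sprr. mSCC-20 had 353 CPM of Sprr1b, 55.1 CPM of Sprr1a, 24.3 CPM of Sprr2h and 20.7 CPM of Sprr2k, and no other member reached 10 CPM. mSCC-38 had 10.3 CPM of Sprr1b, 6.92 CPM of Sprr1a, 1.59 CPM of Sprr2h and 0.602 CPM of Sprr2k. These 4 members were thus lower in the culture called highly tumorigenic. By the rule of size 0 members were higher in mSCC-38 and 4 were lower, where 6.80% of 9795 genes were higher and 3.31% lower. Sprr1b was 34.4-fold lower (30.9 to 38.4), Sprr2k 34.4-fold (22.1 to 56.7), Sprr2h 15.2-fold (11.5 to 20.5) and Sprr1a 7.96-fold (6.93 to 9.18). Sprr2j-ps, a pseudogene beside Sprr2k that was chosen after its values were seen, had 275 counts in mSCC-20 and 5 in mSCC-38. Per kilobase, Sprr2h (32.6 CPM) and Sprr2k (32.5 CPM) were level at the top of the Sprr2 genes in mSCC-20. In mSCC-38 Sprr2d (2.44 CPM per kilobase, 55 counts) and Sprr2h (2.14 CPM per kilobase, 53 counts) were too close to rank.

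Lce RNA was near the floor in both cultures. The Lce sums rested on 139 counts in mSCC-20 and 124 in mSCC-38, and their ratio was 1.21 (0.944 to 1.56), an interval that includes 1. The median Lce level was 0.0651% of the gene's highest library in mSCC-20 and 0.0555% in mSCC-38. The 7 hair genes were left there at medians of 0.0669% and 0.0446% of skin, and single hair genes at up to 0.114% and 0.0599%. The median Lce level thus lay within the range of that residue in both cultures, though above the hair median in mSCC-38. The highest was Lce6a in mSCC-20, at 0.507% of its highest library, which rested on 5 counts. In mSCC-38 the median Sprr level was also low, at 0.0813% of the gene's highest library. Skin, tumour and cultures are 1 library each, and a difference between the cultures is a difference between those libraries.

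**Figure D5:**
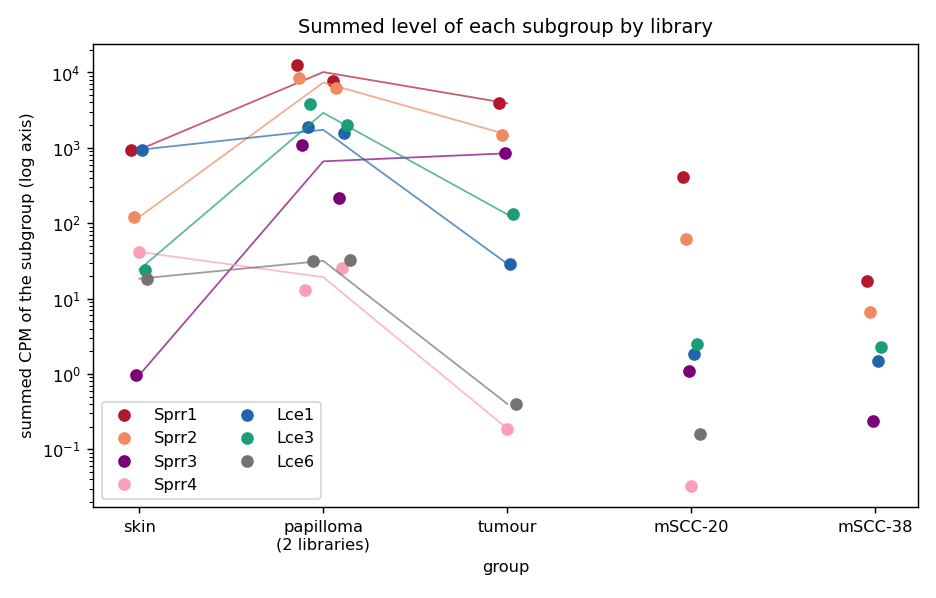
Summed CPM of each subgroup (log axis) in the 6 libraries, 1 point per library, with lines through the papilloma mean joining the biopsies only. Sprr4 and Lce6 had 0 counts in mSCC-38 and have no point there, and Lce1 drops from 1737 in papilloma to 29 in the tumour and Sprr1 from 10122 to 3910.

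The papillomas differed from each other mainly in level. Papilloma 2 was lower than papilloma 1 for 26 of the 31 members, with a counting interval below 1 for each of those 26, and higher with an interval above 1 for 2 (Sprr2b and Sprr4). At such counts the interval excludes 1 even for a small difference, as for Lce1e (ratio 0.893, 0.847 to 0.941). Among all genes the share with such an interval was not counted. By the rule of size 0 members were higher in papilloma 2 and 1 was lower (Sprr3), where 1.08% of 9962 genes were higher and 0.0903% lower. The median log2 ratio was -0.45 over the members and -0.04 over all genes at 10 CPM or more. Sprr3 was 5.07-fold lower in papilloma 2 (4.93 to 5.21). Lce3 genes were 1.78-fold to 2.18-fold lower there, and Sprr2e, Lce1a1 and Lce6a differed by less than counting error. These ratios show the spread on which the tests above rest.

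Other genes of the same chromosome region and pathway were counted from fixed lists. Of 15 tested epidermal differentiation complex genes outside the families, 7 rose and 1 fell in papilloma (median log2 fold change 1.17), and 0 rose and 9 fell in the tumour against papilloma (median -3.30). The largest called changes in papilloma were those of S100a9, which went from 7.09 CPM in skin to 1610 and 2007 CPM, Rptn (7.03 on the log2 scale) and S100a8 (6.34). In the tumour against papilloma they were those of Hrnr (-6.84), Flg2 (-6.38) and Rptn (-5.23). Lor, which encodes loricrin, was at 1405 CPM in skin, at 2810 and 1991 CPM in the papillomas and at 76.5 CPM in the tumour. It did not pass the test in papilloma (0.78 ± 0.35, edgeR adjusted p = 0.157) and fell by 4.97 ± 0.45 (log2) in the tumour (edgeR adjusted p = 0.00487). Ivl, which encodes the early envelope protein involucrin, was at 154, 276, 244 and 156 CPM, and passed the test in neither comparison (edgeR adjusted p = 0.0579 and 0.0679).

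Of 20 envelope crosslinking and scaffold genes 14 rose and 0 fell in papilloma (median 1.86), led by Serpinb12 (5.35), Csta (3.87) and Alox12b (3.86). In the tumour 0 rose and 14 fell (median -3.64), led by the suprabasal keratins Krt1 (-6.70) and Krt10 (-6.67) and by Casp14 (-5.90), a protease of cornification. Of 20 transcription factors tied to late keratinocyte differentiation 11 rose and 1 fell in papilloma (median 1.10), led by Elf3 (4.05), Fosl1 (3.90) and Ehf (3.79). In the tumour 1 rose and 10 fell (median -1.04): Elf3 rose by 2.61, and Gata3 (-2.97) and Ovol1 (-2.49) fell most. Fosl1, an AP-1 subunit, was at 3.26 CPM in skin, at 66.3 and 30.9 CPM in the papillomas, at 34.7 CPM in the tumour, 126 CPM in mSCC-20 and 33 CPM in mSCC-38. Fos, chosen after its values were seen, was at 13.4, 53.7, 38.5, 59.4, 236 and 4.78 CPM in the same order.

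Some marker lists of cell types also differed between the biopsies. The 8 markers of suprabasal keratinocytes, the cells that build the envelope, summed to 9729 CPM in skin, 29919 and 25784 CPM in the papillomas and 2175 CPM in the tumour, none at 0. In papilloma 4 of the 8 rose and 1 fell, and in the tumour against papilloma 1 rose and 5 fell. The tumour sum lay below skin, where the Lce1 sum also lay below it and the Sprr and Lce3 sums above it. The 4 stress keratinocyte markers (Krt6a, Krt6b, Krt16 and Krt17) summed to 1775 CPM in skin, to 58295 and 36928 CPM in the papillomas and to 21133 CPM in the tumour. Of these 3 rose in papilloma (median log2 fold change 6.65), and 1 fell in the tumour against papilloma. Basal keratinocyte markers (8 genes) summed to 7844 CPM in skin, 35344 and 26639 CPM in the papillomas and 30771 CPM in the tumour. Krt14, chosen after its values were seen, weighed most in this, at 1867 CPM in skin and 24670 and 17765 CPM in the papillomas. In papilloma 4 of the 8 rose and 2 fell (Krt15 and Dst), and in the tumour against papilloma 3 rose and 0 fell. Hair markers (12 genes) summed to 19965 CPM in skin, 93.1 and 5779 CPM in the papillomas and 161 CPM in the tumour, and muscle markers (8 genes) to 11941, 2267, 1328 and 735 CPM. Of the 12 hair markers 0 were called in either comparison. Leukocyte markers (8 genes) summed to 255, 198, 199 and 421 CPM, and 4 of the 7 tested rose in the tumour against papilloma. Endothelial markers (5 genes) hardly differed, at 181, 213, 180 and 193 CPM, with 0 called in either comparison. Fibroblast markers (7 genes) summed to 3867, 5386, 4386 and 5094 CPM. Adipocyte markers (8 genes) summed to 2417, 1648, 977 and 925 CPM, and sebaceous gland markers (6 genes) to 2624, 727, 1005 and 407 CPM. Of the 8 adipocyte markers 5 fell and 0 rose in papilloma. Fabp4, an adipocyte marker chosen after its values were seen, was at 349 CPM in skin and 1251 and 604 CPM in the papillomas. The part of these shifts in the changes of the members was not tested.

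The subgroup sums were also set against single genes of suprabasal cells, a description chosen after the values were seen. The summed Lce1 level over the Krt10 level was 0.202 in skin, 0.174 and 0.19 in the papillomas and 0.307 in the tumour. For Lce3 it was 0.00522 in skin, 0.353 and 0.24 in the papillomas and 1.39 in the tumour. For Sprr2 it was 0.026, 0.782, 0.744 and 15.9, and for Sprr1 0.204, 1.16, 0.923 and 41.5. For Lce6a it was 0.00397, 0.0029, 0.00384 and 0.00427. Per Krt10 RNA, Lce1 and Lce6a thus ranged less over the biopsies than Lce3, Sprr2 and Sprr1 did. The range of Lce1 depended on the gene it was set against: over Krt1 it was 0.688, 0.184, 0.162 and 0.3, and over Lor 0.67, 0.672, 0.796 and 0.379. So did that of Lce6a, which over Krt1 was 0.0135, 0.00305, 0.00328 and 0.00417, and whose tumour values rest on 17 counts. Sprr4 differed from the other Sprr subgroups, at 0.00896, 0.00122, 0.00303 and 0.00201 over Krt10.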

How the data were processed

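Per the file headers, the authors deposited 1 table of raw counts per gene model and library, with RPKM values and a gene length. The RPKM values, made by the authors from the counts, the length and 99.2% to 99.6% of the summed counts, served as a check only. Per the submitters' processing notes the build was mm9. The aligner, counting program, use of strand and read length are not given in the labels or the table, and near-identical and overlapping genes may share reads. Per the labels' protocols, libraries were made with a small RNA kit for SOLiD. Starts in the table count from 0 and are printed from 1.

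Papilloma against skin and tumour against papilloma were tested with the quasi-likelihood method of edgeR 4.0.16 (limma 3.58.1, R 4.3.3, TMM, default filter by group) on the 4 biopsies over 16353 genes, with Benjamini-Hochberg adjustment over all of them. The 2 papillomas gave 1 residual degree of freedom (common dispersion 0.0773, prior 3.81, total 4.81), which skin and tumour borrow. An SE is the absolute log2 fold change over the root of the F statistic. The fit was also run on simulated data whose spread was taken from the same fit. Such a run cannot show the replicate error that skin and tumour lack, and nothing is concluded from it. Alternatives were DESeq2 1.42.0, its size factors, total counts, no filter, all 6 libraries and each papilloma left out. Pairs of single libraries were compared by a ratio of at least 4-fold, with 0.5 CPM added, and 10 CPM in the higher library.

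The members and lists were chosen with earlier results of these data known. Genes given in full are Sprr1, Sprr3, Sprr4, the 4 highest in any library within Sprr2, Lce1 and Lce3, and any member called against its subgroup, and, of each list, the 3 largest called changes and Lor, Ivl, Krt1 and Krt10. Promoter windows are RefSeq's (GRCm38.p6), and shared windows come from GENCODE transcripts. Lce1j, Lce3d, Lce3e, Sprr2a3 and Flg are not analysed here.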

Additional observations from a re-analysis of the deposited data

How the results depend on the processing

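Counts of members kept their direction and stayed within 1.5 times under the alternatives run. Members higher in papilloma than in skin numbered 24 to 28 over the 5 other fits (24 with total counts alone, 28 by DESeq2's Wald test), and members lower in tumour than in papilloma 25 to 29. Of 29 calls for papilloma against skin 25 remained in all 5, and of 28 for tumour against papilloma 25. Lce1l turned to -0.43 with total counts alone (edgeR adjusted p = 0.212), the cause was not tested. By the rule of size, leaving out either papilloma gave 21 to 22 members higher in papilloma than in skin and 24 to 27 lower in tumour. The log2 ratio of the Sprr sum then ran from 3.67 to 4.32 for papilloma over skin and from -1.82 to -1.18 for tumour over papilloma, and that of the Lce sum from 1.88 to 2.55 and from -5.16 to -4.50. Total counts alone moved the median log2 fold change of all genes for papilloma against skin from -0.06 to -0.48, and that of the members from 3.82 to 3.38. No paired analysis was possible because only papilloma has more than 1 library. Depth limits the Lce values in the cultures, with medians of 6 and 3 counts per gene, and the lowest skin value tested, 18 counts.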
